A study of Rattus norvegicus with 12 samples.

Results

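The genes described here encode the Mcm helicase of DNA replication (Mcm2, Mcm3, Mcm4, Mcm5, Mcm6 and Mcm7), the sliding clamp Pcna, and enzymes that supply deoxynucleotides (Rrm1, Rrm2 and Tyms). All probes of the non-normalized table that the platform annotation assigns to these 10 genes were taken. They were 10 probes for 9 genes, of 21946 probes and 12925 named genes in all. Mcm5 had 2 probes and every other gene had 1, save Rrm1, for which no probe was named. Rrm1 therefore has no values on the arrays and is described by its promoter only. Each array measured total RNA of a rat sample, either exosomes or the cells that received them. The donor of the exosomes was ASML, a metastasizing pancreatic adenocarcinoma line: 3 arrays held exosomes of ASML wt cells (wt exosomes), and 3 held exosomes of ASML cells in which CD44v, the variant isoforms of the adhesion molecule Cd44, had been knocked down (kd exosomes). The recipient was B12, a line of lymph node stroma, with 2 untreated arrays, 2 after 24 h with wt exosomes and 2 after 24 h with kd exosomes. The sources used here do not give how CD44v was knocked down, whether the knockdown line was 1 clone, or whether exosome batches were pooled. The labels do not say that replicates came from separate cultures, so the p-values measure the spread between these arrays, which may be technical.

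Mcm2 to Mcm7 form a ring of different subunits that is loaded on replication origins before S phase and then unwinds DNA at the fork. Pcna holds the DNA polymerases on the template. Rrm1 and Rrm2 are the large and small subunits of ribonucleotide reductase, which makes deoxynucleotides from ribonucleotides, and Tyms makes thymidylate. In proliferating cells these genes are transcribed mainly from late G1 into S phase, under the control of the E2F factors, and their RNA is low in resting cells.

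The promoters are shown first because E2F sites are what these genes are known to share, and because Mcm5 behaved unlike its partners Mcm2, Mcm6 and Mcm7 on the arrays. The RefSeq promoter table (build GRCr8) held 8 of the 10 genes. Rrm2 and Mcm4 were not matched. The 250 bases upstream of the annotated start were searched on both strands for 4 forms of the E2F site. These were TTCCCGC, its variant TTCGCGC, and the forms that begin with TTG, namely TTGCCGC as well as TTGGCGC. At least 1 was found in 6 of 8 genes, against 7.6% of all 33469 promoters in the table, and 2 or more in 4 of 8 genes, against 0.7%. The 4 promoters with 2 or more are printed 5′ to 3′ on the strand of the gene, with the E2F letters in capitals. They lie at chr4:122918095-122918344 on the minus strand (Mcm2), chr13:42404353-42404602 on the minus strand (Mcm6), chr12:22163179-22163428 on the minus strand (Mcm7) and chr19:13488563-13488812 on the plus strand (Mcm5).
Mcm2: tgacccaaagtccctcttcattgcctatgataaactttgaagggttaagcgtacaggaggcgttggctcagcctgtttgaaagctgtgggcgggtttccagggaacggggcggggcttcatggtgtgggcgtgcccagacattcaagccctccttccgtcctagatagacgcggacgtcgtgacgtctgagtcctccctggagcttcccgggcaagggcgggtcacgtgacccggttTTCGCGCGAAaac
Mcm6: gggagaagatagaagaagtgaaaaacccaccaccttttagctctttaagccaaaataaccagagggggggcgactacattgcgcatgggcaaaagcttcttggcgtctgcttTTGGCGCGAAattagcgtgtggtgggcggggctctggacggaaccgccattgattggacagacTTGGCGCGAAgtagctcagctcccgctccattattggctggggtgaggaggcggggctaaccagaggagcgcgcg
Mcm7: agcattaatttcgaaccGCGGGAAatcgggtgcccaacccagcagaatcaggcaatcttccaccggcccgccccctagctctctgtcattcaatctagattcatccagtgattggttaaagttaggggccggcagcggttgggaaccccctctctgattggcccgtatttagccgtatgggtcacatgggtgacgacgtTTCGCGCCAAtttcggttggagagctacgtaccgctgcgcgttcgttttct
Mcm5: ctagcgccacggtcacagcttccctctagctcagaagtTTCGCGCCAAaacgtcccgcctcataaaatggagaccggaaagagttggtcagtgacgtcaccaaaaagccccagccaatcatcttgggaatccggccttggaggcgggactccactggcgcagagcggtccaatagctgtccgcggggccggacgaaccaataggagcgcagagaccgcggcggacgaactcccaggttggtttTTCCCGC
In Mcm2 the 2 matches, on opposite strands, overlap each other at −13 and −10 from the start and make 1 stretch of capitals. Mcm6 holds 4 matches in 2 such stretches, which begin at −138 and −75. Mcm7 holds 3 matches: 1 begins at −233, and 2 share a stretch at −51 that also overlaps a CCAAT box. Mcm5 holds 3 matches, as Mcm7 does, at −212, −209 and −7, of which the first 2 overlap on opposite strands. Any link of these counts to the array values was not tested. Rrm1 and Tyms had 1 match each, and Mcm3 and Pcna had none of these letters in the window. The CCAAT box (CCAAT) was present in 6 of 8 genes against 34.0% of all promoters, the GC box (GGGCGG) in 6 of 8 against 30.5%, and the cell cycle elements TTTGAA or TTCGAA in 3 of 8 against 17.4%. A match describes the letters only, since binding was not measured.

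All 10 probes were detected above background on all 12 arrays. The exosome arrays were dimmer than the cell arrays, with a mean signal over background of 100.1 to 298.7 against 504.7 to 588.4. Exosome arrays carried the epithelial markers Epcam and Cldn3 on 6 of 6 arrays, and B12 arrays carried them on 0 of 6. Other epithelial markers separated the samples less. Esrp1 was detected on 6 exosome and 2 B12 arrays, and Krt7 on 6 and 4. Krt8, Krt19, Spint2 and Tspan8 were on all arrays of both kinds, Cdh1 on 2 exosome and 6 B12 arrays, and Krt18 on 1 exosome array. B12 arrays carried the stroma markers Col1a1, Col3a1, Col6a1, Dcn and Lum on 6 of 6. They carried Pdgfra on 4 and Thy1 on 0. Exosome arrays carried Col1a1, Col3a1 and Col6a1 on 1, Dcn on 3, and Lum, Pdgfra and Thy1 on 0. Other stroma markers separated the samples less. Vim was detected on all arrays, and Col1a2 and Cxcl12 on 5 exosome and 6 B12 arrays. Sparc was on 4 exosome and 6 B12 arrays, Pdpn on 4 and 2, and Ccl21 on 1 and 1. The targeted gene Cd44 was at 7.18, 7.07 and 6.73 in wt exosomes and at 5.59, 5.72 and 5.37 in kd exosomes (log2 normalized signal, replicates 1 to 3). Whether its probe lies in the variant exons is not known here. The arrays did not all group by label. Over all probes, kd exosome replicates 1 and 2 correlated at 0.986 with each other, whereas kd replicate 3 correlated at 0.842 and 0.829 with them and at 0.946 to 0.969 with the wt exosome arrays. B12 arrays of replicate number 1 and number 2 also differed: the summed signal of the 10 measured epithelial markers was 67.5 to 115.7 times the array mean in number 1 and 12.5 to 21.3 times in number 2, and that of the 13 stroma markers 33.7 to 63.9 times against 209.6 to 234 times. Results are therefore also given by array, by number and without kd replicate 3. All differences below are log2 differences.

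In B12 cells treated with wt exosomes, every one of the 9 genes had a lower mean than in untreated cells, where 48% of all probes were lower and 52% higher, but none passed the test across all probes. The difference was largest in Rrm2, the regulated subunit of ribonucleotide reductase, followed by Mcm5, whose arrays varied widely within groups, and Tyms. The mean intensity of Rrm2 was 2861 and 2822 in untreated cells, 1914 and 734 after wt exosomes, and 2235 and 2068 after kd exosomes (numbers 1 and 2). Normalized within the 6 B12 arrays, this gave 11.59 and 11.32, then 10.78 and 9.28, then 11.15 and 10.87. Both wt-exosome arrays lay below all other B12 arrays, with number 2 far below number 1. The difference from untreated cells was −1.42 ± 0.51 (SE, 2 arrays against 2, limma, unadjusted p = 0.0385, adjusted p = 0.9998). In bulk RNA, fewer replicating cells and less of this RNA per cell cannot be told apart.

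Tyms was at 9.31 and 8.95 in untreated cells, at 8.57 and 7.87 after wt exosomes and at 8.80 and 8.77 after kd exosomes. The groups treated with wt exosomes and untreated did not overlap, and the difference was −0.91 ± 0.33 (limma, unadjusted p = 0.039, adjusted p = 0.9998). The helicase subunits other than Mcm5, which is described further on, had smaller differences of the same sign. Mcm6 was at 11.06 and 11.34, at 10.86 and 9.94, and at 10.96 and 11.15 in the same order of groups. Mcm3 was at 8.70 and 8.77, at 8.32 and 7.62, and at 8.74 and 8.59. Mcm2 was at 10.70 and 10.98, at 10.47 and 9.82, and at 10.42 and 10.63. In these 3 genes both wt-exosome arrays lay below both untreated arrays, and number 2 again lay lowest of the 6 arrays. The differences from untreated cells were −0.79 ± 0.35 for Mcm6, −0.77 ± 0.32 for Mcm3 and −0.69 ± 0.29 for Mcm2.

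Mcm4 and Mcm7, which with Mcm6 form the core that carries helicase activity, lay lower by less. Mcm4 was at 8.36 and 8.47 untreated, 8.19 and 7.65 after wt exosomes and 8.41 and 8.46 after kd exosomes. Mcm7 was at 10.17 and 10.61, 10.24 and 9.56, and 10.40 and 10.01. The Mcm7 groups overlapped, since number 1 after wt exosomes exceeded number 1 untreated. The differences were −0.50 ± 0.29 for Mcm4 and −0.49 ± 0.33 for Mcm7. Pcna, the clamp, was at 12.94 and 13.25, 12.88 and 12.67, and 13.05 and 13.00, a difference of −0.32 ± 0.18 between treated and untreated cells. Counted over genes, 8 of 9 had groups that did not overlap with the treated side lower, against 11.7% of the 11631 probes tested, and 0 with the treated side higher, against 12.5%. None of the 9 was called, against 0% of all probes: limma called 0 probes after Benjamini-Hochberg adjustment at 0.05, and 326 had an unadjusted p under 0.05. The median over the 9 genes was −0.77, and over all probes 0.01.

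**Figure D1:**
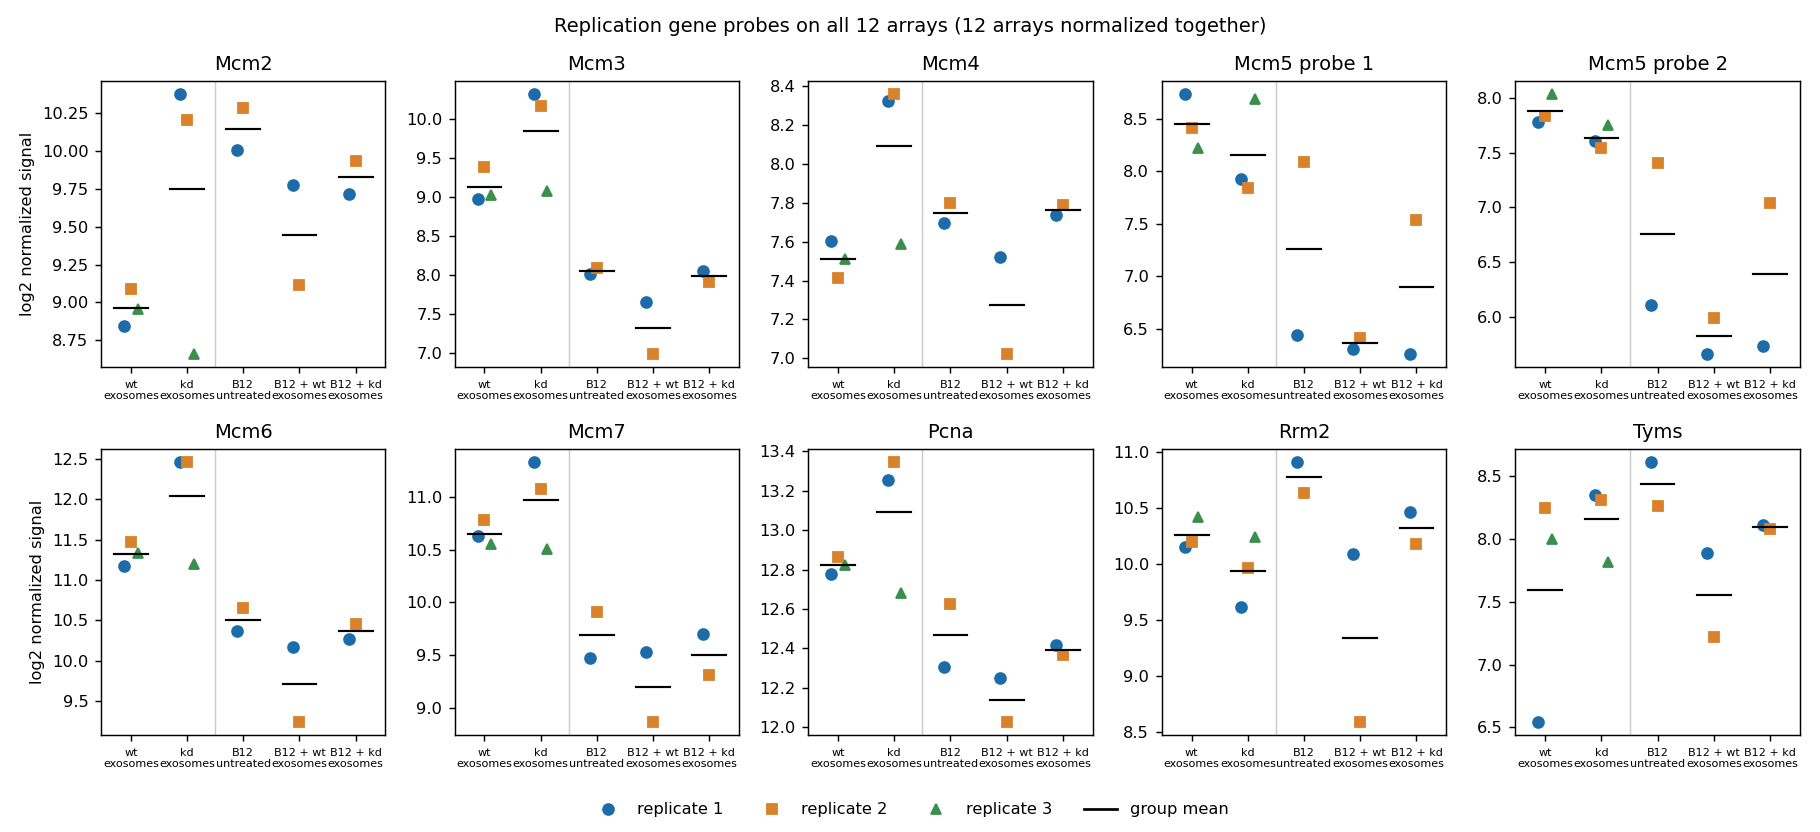
Log2 normalized signal of each probe (vertical axis, 12 arrays normalized together, each panel with its own scale) in the 5 groups (horizontal axis); symbols are replicate numbers and bars are group means. Replicates 1 and 2 of the kd exosomes lay above the wt exosomes in Mcm2, Mcm3, Mcm4, Mcm6, Mcm7 and Pcna, kd replicate 3 did not, and number 2 of the B12 cells with wt exosomes lay lowest of the B12 arrays in every panel but the 2 of Mcm5; the order of exosome and cell groups changed under median scaling for all 9 genes.

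The size of this difference came mostly from 1 array. Set against the untreated array of the same number, the wt-exosome array of number 1 had a median of −0.19 over the 9 genes, with 8 of 9 lower, and that of number 2 a median of −1.16, with 9 of 9 lower. In number 1, Rrm2 and Tyms lay at −0.81 and −0.74, Mcm3 at −0.37, and the others, taking the brighter probe of Mcm5, between −0.22 and 0.06. In number 2, Rrm2 lay at −2.04, Mcm5 at −1.79, Mcm6 at −1.39, Mcm2 and Mcm3 at −1.16, Tyms at −1.08 and Pcna at −0.58. The cell markers also differed in these pairs, over those that passed the detection filter. The median of 10 of 13 stroma markers was 0.62 in number 1 and −0.10 in number 2 after wt exosomes. After kd exosomes it was 0.69 and 0.03. The median of 6 of 10 epithelial markers was −0.38 and 0.43 after wt exosomes, and −0.50 and −0.32 after kd exosomes. Their part in the differences of the 9 genes was not tested. Without the wt-exosome array of number 2 the median over the 9 genes was −0.36, and without that of number 1 it was −1.03.

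After treatment with kd exosomes the means lay closer to those of untreated cells. The differences ran from −0.44 ± 0.51 in Rrm2 to 0.02 ± 0.29 in Mcm4, with a median of −0.18 and 8 of 9 lower, where 48.7% of all probes were lower and 51.3% higher. The groups did not overlap, treated side lower, in Mcm2 (−0.32), Rrm2 and Tyms (−0.35), that is 3 of 9 against 10.2% of all probes, and treated side higher in 0, against 12%. limma called 0 of 11631 probes, and 286 had an unadjusted p under 0.05. By number, the median was −0.09 in number 1 and −0.25 in number 2. Without the untreated array of number 2 the median was 0.000707, and without that of number 1 it was −0.282.

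Set directly against each other, cells with kd exosomes had higher means than cells with wt exosomes in 9 of 9 genes, against 50.2% of all probes higher and 49.8% lower. The difference was 0.98 ± 0.51 in Rrm2, 0.70 ± 0.32 in Mcm3, 0.65 ± 0.35 in Mcm6, 0.56 ± 0.33 in Tyms, 0.52 ± 0.29 in Mcm4 and 0.25 ± 0.18 in Pcna. In these 6 genes both kd-exosome arrays lay above both wt-exosome arrays, against 11.2% of all probes, and in 0 they lay below, against 9.32%. In Mcm2 (0.38 ± 0.29), Mcm5 (0.58 ± 0.75) and Mcm7 (0.31 ± 0.33) the groups overlapped. limma called 0 probes, 231 had an unadjusted p under 0.05, and the adjusted p was 1 for each of the 9 genes. The median of 0.56 over the 9 genes became 0.22 without the wt-exosome array of number 2. The comparisons of B12 cells share arrays pairwise, so their values are not independent of each other.

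**Figure D2:**
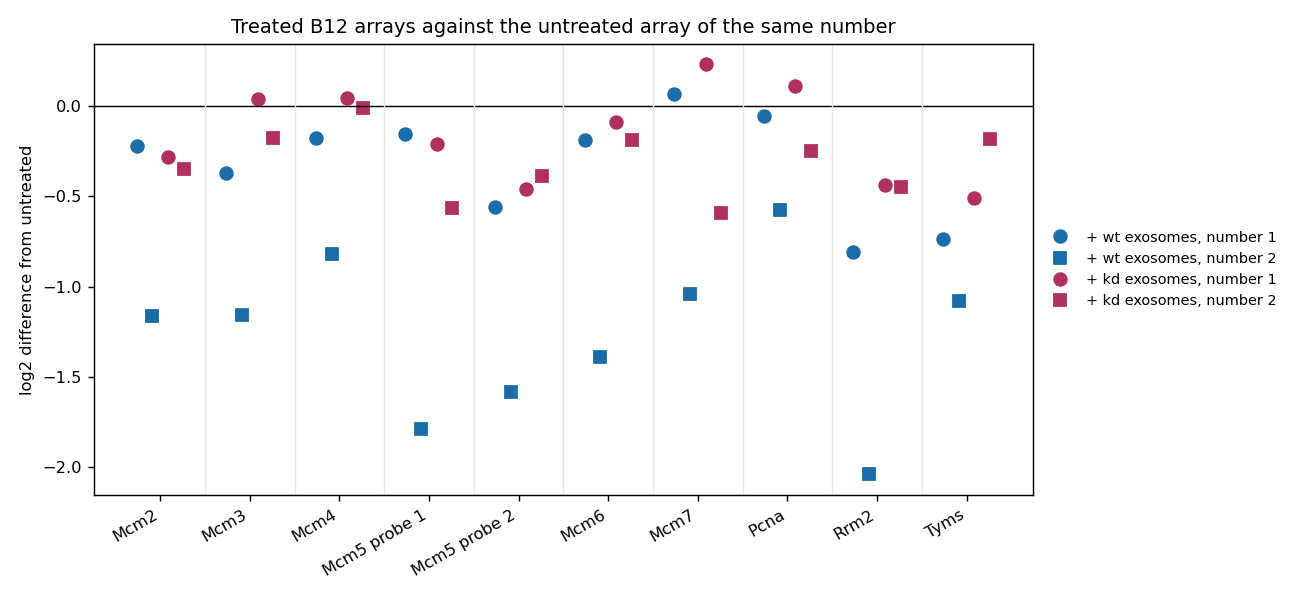
Log2 difference (vertical axis) of each treated B12 array from the untreated array of the same replicate number, for each probe (horizontal axis); blue is wt exosomes, red is kd exosomes, circles are number 1 and squares number 2. The wt-exosome array of number 2 lies at −0.58 or below in every probe, with Rrm2 at −2.04, and the other 3 arrays lie closer to 0.

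Mcm5 differed by replicate number in every B12 group. Its first probe, the brighter one, was at 7.00 and 8.77 in untreated cells, 6.85 and 6.98 after wt exosomes and 6.80 and 8.20 after kd exosomes. The second probe was at 6.62 and 8.06, 6.06 and 6.47, and 6.16 and 7.67. Number 2 lay above number 1 in all 3 groups for both probes, as in 24.8% of all probes, by 1.76, 0.13 and 1.41 for the first probe; 28.5% lay the other way. Over the 6 B12 arrays the probes correlated at 0.984, as a description of arrays that share a chip and, in pairs, a number. Within groups, the difference of number 2 from number 1 was 1.12 ± 0.27 for the second probe, which passed the test (limma, adjusted p = 0.0367), and 1.10 ± 0.33 for the first, which did not (limma, adjusted p = 0.072). The second probe lost the call without either untreated array (0.97 and 0.96) or either kd-exosome array (0.93 each). The first gained it without either wt-exosome array (1.59 and 1.58). An array left alone in its group adds nothing to this difference, so the 2 omissions in a group make 1 check. By the first probe, 0 of 9 genes were called in this comparison, where 19.6% of all probes were, 9.41% higher and 10.2% lower. Rrm2 lay the other way, at −0.68 ± 0.26 (limma, adjusted p = 0.135), and the remaining genes differed by −0.36 to 0.02. These means join unlike pairs. Rrm2 differed by −1.50 in cells with wt exosomes, but by −0.27 in untreated cells and −0.28 with kd exosomes. Over the 9 genes the median was 0.28 in untreated cells, −0.67 with wt exosomes and −0.03 with kd exosomes. The numbers also differed in epithelial and stroma markers, as given above; the part of these in the Mcm5 difference was not tested.

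The spread within groups differed between Mcm5 and Rrm2. The first Mcm5 probe averaged 7.89 ± 1.25 in untreated cells and 6.91 ± 0.09 after wt exosomes (SD, n = 2), and the difference of −0.97 ± 0.75 had an unadjusted p of 0.249 in limma. The main fits of B12 treatment had no term for the replicate number. Their SE and p therefore take in the difference between numbers. Rrm2 averaged 11.45 ± 0.19 and 10.03 ± 1.06, with the larger spread on the treated side.

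The lists of other replication genes gave the setting. Of 17 tested genes of origin licensing and firing, 16 had lower means after wt exosomes, with a median of −0.54, and 0 were called. They included Gins1 (−1.17 ± 0.44), a subunit of the GINS complex that completes the active helicase, and Cdc6 (−1.04 ± 0.42), which helps to load the Mcm ring. Of 28 genes of the replication fork, 25 were lower, with a median of −0.49. Examples were Clspn (−1.09 ± 0.25), a fork checkpoint mediator, Pole (−1.21 ± 0.34), the catalytic subunit of the leading-strand polymerase, Rpa2 (−0.86 ± 0.28), part of the single-strand binding protein, and the histone chaperone Asf1b (−1.60 ± 0.61). Of 19 further genes of nucleotide supply, 12 were lower and 7 higher, with a median of −0.04. Dut, which removes dUTP, lay at −0.87 ± 0.22, and Cad, which starts pyrimidine synthesis, at 0.38 ± 0.29. Of 19 S phase regulators, 11 were lower, with a median of −0.06: cyclin Ccna2 lay at −1.22 ± 0.37, E2f1 at −0.86 ± 0.50 and the G1 cyclin Ccne1 at 0.80 ± 0.47. Of 20 genes of mitosis, 20 were lower, with a median of −1.44. Aspm lay at −1.98 ± 0.30 and Prc1 at −1.76 ± 0.28. With the authors' deposited values the mitosis median was −0.81 and the origin median −0.23, and without background correction the origin median was −0.32; no list median changed sign under any of the 4 other scalings. None of the genes on these lists was called by limma.

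The mitosis genes had large differences in both numbers. Against untreated cells of the same number, their median after wt exosomes was −1.16 in number 1 and −1.80 in number 2, with 20 of 20 and 19 of 20 lower. The origin genes lay at −0.25 and −1.05, and the fork genes at −0.24 and −0.97. After kd exosomes the mitosis median was −0.31 and −0.68, the origin median 0.07 and −0.33, and the fork median −0.10 and −0.32. Over both numbers, the kd-exosome cells lay above the wt-exosome cells in 15 of 17 origin genes, 24 of 28 fork genes and 18 of 20 mitosis genes, with medians of 0.38, 0.38 and 1.01. Dut, at 0.63 ± 0.22, and Pole, at 1.01 ± 0.34, had the smallest p of their lists, and neither was called.

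**Figure D3:**
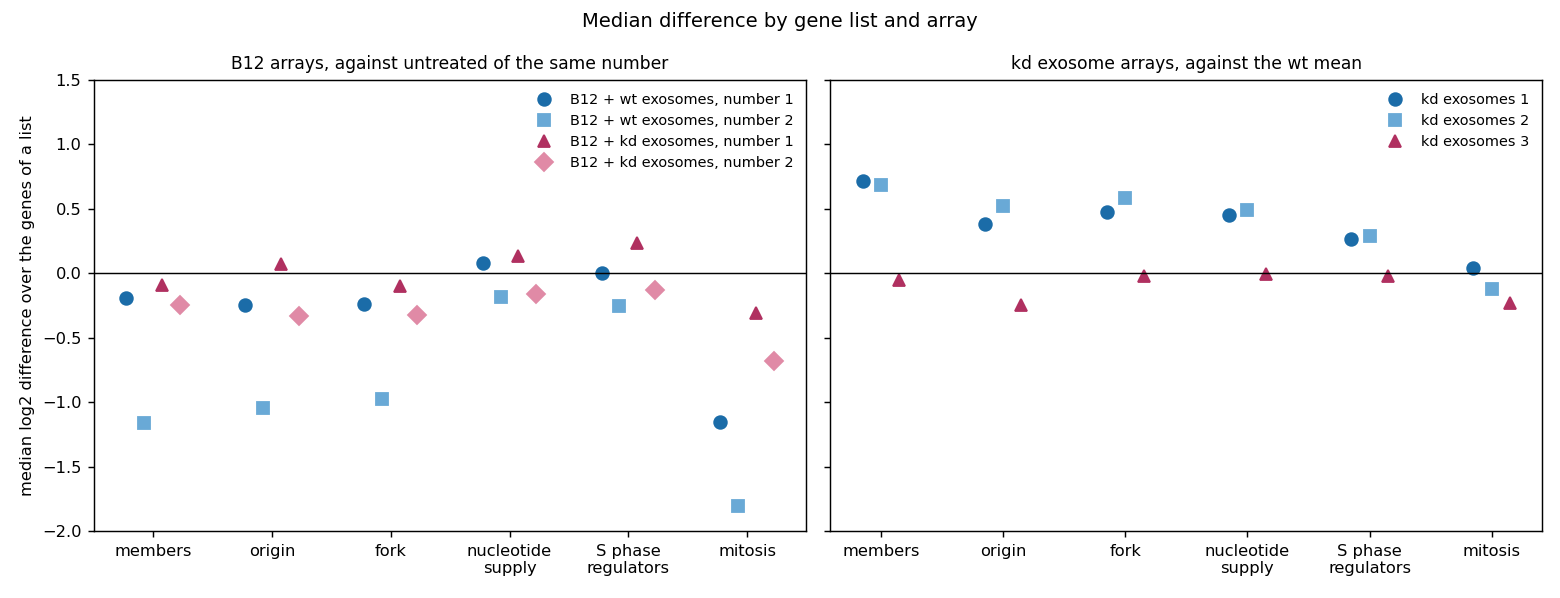
Median log2 difference over the tested genes of each list (vertical axis) for single arrays (symbols). On the left, B12 arrays are set against the untreated array of the same number. On the right, kd exosome arrays are set against the mean of the wt exosome arrays. The members lie at −0.19 and −1.16 in the 2 arrays of B12 cells with wt exosomes, the mitosis genes at −1.16 and −1.80, and kd exosome replicates 1 and 2 lie at 0.71 and 0.69 for the members where replicate 3 lies at −0.05.

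In the exosomes themselves, most of these RNAs were higher in kd replicates 1 and 2 than in wt exosomes, and near the wt level in kd replicate 3. Mcm6 had a mean intensity of 532, 1114 and 776 in wt exosomes and of 4652, 3859 and 497.5 in kd exosomes, on arrays of which kd 1 and kd 2 were also the brightest. Normalized within the 6 exosome arrays it was at 9.84, 10.20 and 10.02 in wt and at 11.32, 11.32 and 9.88 in kd exosomes. The groups overlapped through kd replicate 3, and the difference was 0.82 ± 0.38 (SE, 3 arrays against 3, limma, adjusted p = 0.392). Mcm2 was at 7.46, 7.68 and 7.56 in wt and at 9.00, 8.83 and 7.29 in kd exosomes, a difference of 0.81 ± 0.44. Mcm3 was at 7.58, 7.96 and 7.62, and at 8.95, 8.79 and 7.67, a difference of 0.75 ± 0.35. In both genes kd replicates 1 and 2 stood above every wt array, and replicate 3 did not.

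Mcm4 (0.51 ± 0.29), Tyms (0.44 ± 0.40), Pcna (0.36 ± 0.23) and Mcm7 (0.34 ± 0.24) had the same sign. Pcna was at 11.70, 11.83 and 11.77 in wt and at 12.36, 12.46 and 11.58 in kd exosomes. Tyms was dim, at 5.57, 6.90 and 6.67 in wt and at 7.00, 6.95 and 6.51 in kd exosomes, and wt replicate 1 set most of its spread. Mcm4 and the second Mcm5 probe were also dim. Mcm4 had a signal over background of 35, 51 and 42 in wt exosomes and of 31 in kd replicate 3. For the second Mcm5 probe it was 39, 68 and 58, and 34. Rrm2 lay the other way, at 8.78, 8.82 and 9.05 in wt and at 8.19, 8.57 and 8.86 in kd exosomes, a difference of −0.34 ± 0.21 that turned to 0.40 under median scaling. Mcm5 did too, at −0.27 ± 0.30 (0.33 under median scaling) for the first probe, which was at 7.36, 7.05 and 6.87 in wt and at 6.61, 6.53 and 7.31 in kd exosomes. The second probe, at −0.22 ± 0.25, was the only 1 of the 10 whose groups did not overlap, with kd lower, as in 11.5% of all probes; 6.43% were apart with kd higher. It turned to 0.34 under median scaling, which raised the median over all probes from −0.04 to 0.36. Taken as a percentage of the mean over all probes of 1 array, background subtracted, Rrm2 was at 185, 217 and 232 in wt and at 192, 237 and 186 in kd exosomes, groups that overlap.

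Limma called 0 of 8699 probes (0%), and 1136 had an unadjusted p under 0.05. Over the 9 genes the median was 0.44, with 7 higher and 2 lower, against −0.04 over all probes, of which 46.7% were higher and 53.3% lower. By array the median was 0.71 in kd replicate 1 and 0.69 in kd replicate 2, each with 7 genes higher and 2 lower, and −0.05 in kd replicate 3, with 3 higher and 6 lower. Without kd replicate 3, limma called 42.6% of 10169 probes, 25.2% higher and 17.4% lower in kd exosomes. Among the 9 genes 6 were called higher, namely Mcm2 (1.35), Mcm6 (1.28), Mcm3 (1.15), Mcm4 (0.76), Pcna (0.62) and Mcm7 (0.58). Rrm2 was called lower (−0.50), and Mcm5 (−0.54) and Tyms (0.62) were not called. The array was omitted because of its values, so these calls describe 5 arrays and are no test of the knockdown. With these 5 arrays, the 6 genes were higher under all 4 other scalings, while Rrm2 turned to 0.85 under median scaling.

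**Figure D4:**
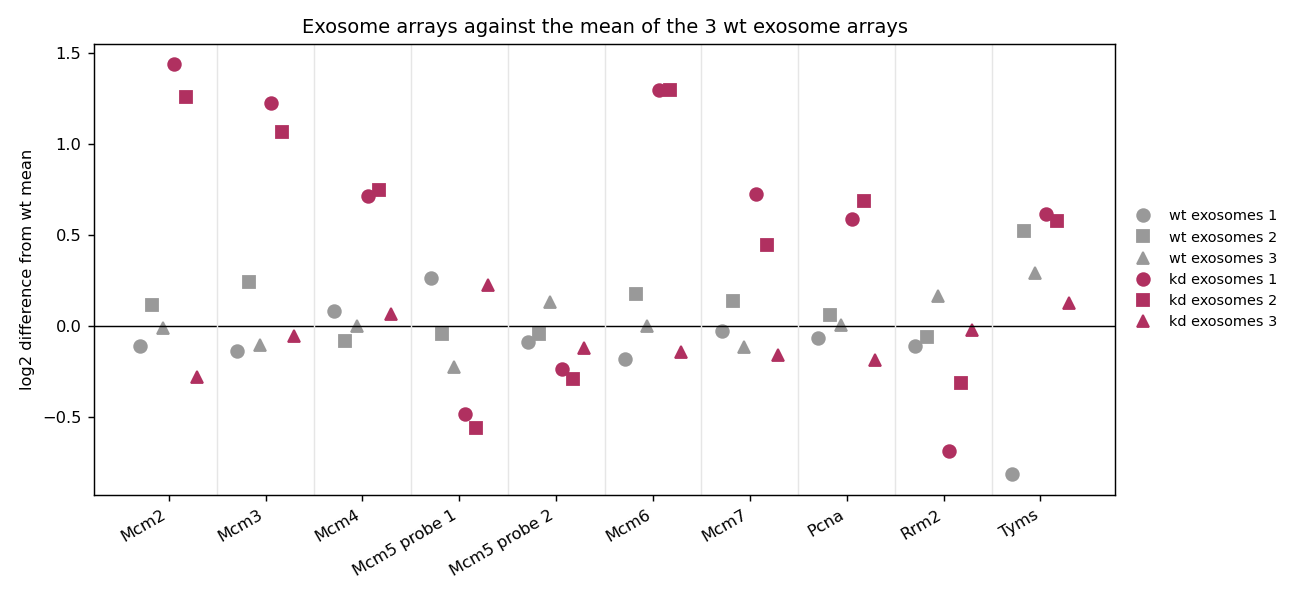
Log2 difference of each exosome array from the mean of the 3 wt exosome arrays (vertical axis) for each probe (horizontal axis); grey is wt, red is kd, and circles, squares and triangles are replicates 1, 2 and 3. Kd replicates 1 and 2 lie above 0 in Mcm2, Mcm3, Mcm4, Mcm6, Mcm7, Pcna and Tyms and below 0 in Mcm5 and Rrm2, while kd replicate 3 lies between −0.28 and 0.22; under median scaling Mcm5 and Rrm2 were higher in kd exosomes.

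The markers of other cells moved with the same arrays. Of 6 measured erythroid and platelet genes, 4 passed the detection filter and were tested. Against the wt mean, these 4 had a median of −3.49 and −3.33 in kd replicates 1 and 2 and 1.87 in replicate 3. The summed signal of all 6 was 5.5 to 19.6 times the array mean in wt exosomes and 0.57 to 42.4 times in kd exosomes. The 5 of 13 stroma markers that were tested had medians of −1.65, −1.55 and 0.42 in the 3 kd arrays. The 8 of 10 epithelial markers that were tested had −0.90, −0.81 and −0.11. A marker passed the filter when detected on all arrays of either group, so a marker high in only 1 group could enter through that group. The 4 leukocyte markers that were tested had medians of −0.87, −1.10 and 0.51. Hbb, Pf4 and Ppbp were detected on all 6 exosome arrays. Of the leukocyte markers, Cd79b and Itgam were detected on 5, Cd68 on 4, Lck on 3, and Ptprc and Cd3e on 0. The part of other RNA in the values of the Mcm genes was not tested.

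Among the other replication genes in exosomes, 11 of 14 origin genes had higher means in kd exosomes (median 0.11), as did 18 of 25 fork genes (median 0.19). Of 17 genes of nucleotide supply 11 were higher, with a median of 0.28, and of 19 mitosis genes 9 were, with a median of −0.02. None was called. Under median scaling, where the median of all probes was 0.36, these medians were 0.76, 0.93, 0.95 and 0.58 in the same order. Geminin (Gmnn), the inhibitor of Mcm loading, lay at 0.72 ± 0.26, Pole at 1.08 ± 0.37 and Mthfd1, a folate enzyme, at 0.87 ± 0.35. Pclaf, a small protein that binds Pcna, lay the other way at −1.28 ± 0.46. Without kd replicate 3, limma called 16 fork genes higher and 4 lower of 27, and 8 genes of nucleotide supply higher and 3 lower of 17. It called 4 origin genes higher and 1 lower of 16, and 5 S phase regulators higher and 3 lower of 16. Of 20 mitosis genes, 7 were called higher and 3 lower. Of all probes, 25.2% were called higher and 17.4% lower. The called genes included the purine enzymes Ppat (1.75) and Paics (1.14), and again Gmnn (1.02), of the origin list, and Pclaf (−1.86). Their signs held under all 4 other scalings.

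Levels in exosomes and in cells were set side by side after normalizing all 12 arrays together. With quantile normalization, but not with median scaling, wt exosomes held more Mcm3 and Mcm7 RNA than untreated B12 cells, relative to the other RNAs on the array. Mcm7 was at 10.62, 10.78 and 10.55 in wt exosomes and at 9.47 and 9.91 in untreated cells, a difference of 0.96 ± 0.29 (limma, adjusted p = 0.0264). Mcm3 was at 8.98, 9.38 and 9.02 and at 8.02 and 8.09, a difference of 1.08 ± 0.38 (limma, adjusted p = 0.0475). Called higher were thus 2 of 9 genes, against 18.1% of all 12231 probes, and called lower 0, against 17.1%, with 35.2% called in either direction. With quantile normalization the arrays of the 2 groups did not overlap in any of the 9 genes. Of these, 5 lay higher in wt exosomes, against 35% of all probes, and 4 lower, against 31.8%. By sign alone, 51.6% of all probes were higher and 48.4% lower. Taken as a percentage of the array mean, background subtracted, both called genes had groups that overlapped. Mcm7 was then at 258, 334 and 258 in wt exosomes and at 205 and 283 in untreated cells. Mcm3 was at 76, 116 and 82, and at 72 and 79. Under median scaling, which moved the median of all probes from 0.05 to −1.18, both signs turned, to −1.35 for Mcm7 and −1.24 for Mcm3, and neither was called. The call of Mcm3 was lost without any 1 of the wt exosome arrays (adjusted p = 0.081, 0.118 and 0.0858 without replicates 1, 2 and 3) or of the untreated arrays (0.161 and 0.144). It was also lost without kd exosome replicate 2 (0.0569) and without any 1 treated B12 array (0.0537 to 0.0634), which only lend their spread to the fit. Further losses came without background correction (0.0598), with offset 50 (0.0521), with no filter (0.0835) and with the authors' values (a difference of 0.59, 0.181). That of Mcm7 was lost without any 1 wt exosome array (0.063, 0.0692 and 0.0542), without untreated replicate 1 (0.171) and with no filter (0.0508), all by limma.

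The other genes split. Mcm5 (1.19 ± 0.54), Mcm6 (0.82 ± 0.38) and Pcna (0.36 ± 0.19) were higher in wt exosomes without passing, and turned to −0.98, −1.39 and −1.30 under median scaling. Mcm2 (−1.18 ± 0.44, limma, adjusted p = 0.0589), Tyms (−0.84 ± 0.48), Rrm2 (−0.52 ± 0.37) and Mcm4 (−0.24 ± 0.34) were lower under every scaling. Under median scaling these 4 were called, at −3.45, −2.71, −2.79 and −2.19. Thus Mcm2 and Mcm3, partners in 1 ring, stood on opposite sides of the comparison with quantile normalization, though not with median scaling: Mcm2 was at 8.84, 9.09 and 8.96 in wt exosomes and at 10.00 and 10.28 in untreated cells, where Mcm3 was at 8.98, 9.38 and 9.02 and at 8.02 and 8.09. Each is compared with itself across arrays, since levels of different probes cannot be compared. For setting, the fork gene Pole2, a polymerase subunit (3.25 ± 0.29, adjusted p = 3.64e-05), and Recql4, a helicase of the origin list (2.48 ± 0.60, limma, adjusted p = 0.0102), were higher in wt exosomes under every scaling. Rbl2, a pocket protein that represses E2F targets, was lower under every scaling (−2.57 ± 0.48, adjusted p = 0.0028).

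Ordered over the 5 groups with all 12 arrays quantile normalized together, B12 cells with wt exosomes had the lowest mean for 8 of 9 genes, and wt exosomes the lowest for Mcm2. Kd exosomes had the highest mean for Mcm3 (9.85 ± 0.68), Mcm4 (8.09 ± 0.43), Mcm6 (12.04 ± 0.73), Mcm7 (10.97 ± 0.42) and Pcna (13.09 ± 0.36, SD, n = 3 each). Untreated B12 cells had the highest for Mcm2 (10.14 ± 0.20), Rrm2 (10.77 ± 0.19) and Tyms (8.44 ± 0.25, SD, n = 2 each), and wt exosomes for Mcm5 (8.45 ± 0.26, n = 3). Few neighbours in these orders were apart: no neighbouring groups were free of overlap for Tyms and the first Mcm5 probe, 1 pair of 4 was for Mcm4, Mcm7 and Rrm2, and 2 pairs were for Mcm2, Mcm3, Mcm6 and Pcna. These orders changed under median scaling for all 9 genes: wt exosomes then had the lowest mean for 9 of 9, and the highest was in untreated B12 cells for 7 and in kd exosomes for Mcm3 and Mcm6.

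Over the 6 B12 arrays the genes moved alike, apart from Mcm5. The correlation of a gene with the mean of the other 8 was 0.982 for Mcm6, 0.976 for Mcm2, 0.952 for Mcm4, 0.943 for Mcm3, 0.924 for Pcna, 0.878 for Rrm2, 0.854 for Tyms and 0.837 for Mcm7, and 0.430 for Mcm5. These describe 6 arrays of 3 groups on 1 chip, of which number 2 with wt exosomes lay lowest in every gene but Mcm5. Over the 6 exosome arrays the same correlation was −0.927 for Mcm5 by its first probe, −0.859 for Rrm2 and 0.591 for Tyms. For the rest it ran from 0.896 in Mcm4 to 0.994 in Mcm6. The 2 Mcm5 probes correlated with each other at only 0.417 over the exosome arrays. In kd replicate 3 the first lay at 0.22 from the wt mean and the second at −0.12. Of 7953 other named probes, 5 were most like the mean of the 9 genes over the B12 arrays. They were Pkmyt1 (0.986), a kinase that restrains Cdk1, Hmmr (0.982), a spindle protein, and Wdr89 (0.977). The others were Chtf18 (0.976), a subunit of an alternative clamp loader for Pcna, and the adenylate cyclase Adcy5 (0.975). Over all 12 arrays, among 8240 probes, the 5 most alike were the histone acetyltransferase Hat1 (0.969), the histone variant H2az1 (0.960) and the ubiquitin-conjugating enzyme Ube2t (0.954). The mitochondrial ribosomal protein Mrpl21 (0.947) and again Chtf18 (0.935) followed.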

How the data were processed

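Total RNA of exosomes and cells was measured on 12 Illumina arrays of 1 chip as biotinylated cRNA, per the labels' protocols. For each probe and array, the deposited file has a column of mean intensity and one of p-values, as named per the file headers; no source used here gives the software. Deposited p-values were small both above and below background and were read as two-sided. A probe was detected where it was under 0.05 with the intensity above background, the median of probes with p above 0.9. Of 23365 rows, 848 without identifier and 571 with 1 of 280 repeated identifiers were left out. The platform table named 1 gene for 13129 of 21946 probes, several for 0 and none for 8817; 13088 gene IDs were found in GRCr8. The authors' normalized intensity, deposited in a second table with its method not stated, served as an alternative.

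Intensities were corrected and quantile normalized with neqc (offset 16, limma 3.58.1, R 4.3.3), separately for exosomes and B12 cells, and together for levels across them. Quantile normalization gives all arrays 1 distribution, so a change shared by most RNAs cannot show. A probe had to be detected on every array of some group and was then tested with limma (trend, two-sided, Benjamini-Hochberg over all probes, threshold 0.05), and the 3 B12 groups shared 1 spread. Of the Mcm5 probes, the brighter over each fit stands for the gene. The tests were run on simulated data with independent noise for each probe. Such data hold no deviations shared across probes, as same-numbered B12 arrays have, so the check does not cover these. Precision is limited by the number of arrays.

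The genes, lists and tests were chosen with earlier results of these data known. All genes of the set were described, with up to 4 genes per list by smallest p in each comparison, and the 5 most alike; some of these are given as examples. Same-numbered B12 arrays deviated together from their group means, with correlations of 0.773, 0.775 and 0.799 between groups. The arrays of a B12 group deviate from its mean by equal and opposite amounts, so both numbers give the same correlations. The 6 same-numbered pairs are therefore not separate values. The numbers were read as pairing the B12 arrays, from the data and not the labels. Exosome numbers did not pair (−0.207 to 0.458 over 3 pairs). Alternatives were no background correction, offset 50, median scaling, the authors' values, other filters, all arrays in 1 fit, the replicate block and leaving out each array. The scalings without kd replicate 3, for the lists and for the group order were added after seeing the data.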

Additional observations from a re-analysis of the deposited data

How the results depend on the processing

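In B12 cells with wt exosomes, all 140 alternative values of the 10 probes kept their direction against untreated cells and none was called. The median over the 9 genes ran from −1.03 to −0.36 with 1 array left out, and from −0.766 to −0.443 under the other settings. Every other leave-out range follows as lowest to highest. For kd-exosome against untreated cells the median ran from −0.282 to 0.000707. The lone sign changes were Mcm4 under median scaling (−0.04) and, with 1 array left out, Mcm4 (−0.04 to 0.07), Mcm5 probe 1 (−1.27 to 0.49), Mcm5 probe 2 (−1.18 to 0.33), Mcm6 (−0.28 to 0.00), Mcm7 (−0.40 to 0.03), Pcna (−0.22 to 0.09) and Mcm3 (−0.14 to 0.00). For kd- against wt-exosome cells the median was 0.379 without background correction, 0.496 with offset 50, 0.5 under median scaling and 0.294 with the authors' values, and 0.216 to 0.779 with 1 array left out; Mcm7 (−0.03 to 0.65), Mcm5 probe 1 (−0.12 to 1.29) and Mcm5 probe 2 (−0.11 to 1.41) changed sign. For kd against wt exosomes, median scaling gave a median of 1.09 and turned Rrm2 (0.40) and Mcm5 (0.33 and 0.34), and 1 fit of all 12 arrays called 2 probes. Leaving out 1 array gave 0 to 6 genes called higher, 0 to 1 lower, a median of 0.312 to 0.625 and 0 to 4332 probes called; kd replicate 3 gave the upper ends. With kd replicates 1 and 2 alone, median scaling turned Rrm2 (0.85) and Mcm5 (0.61 and 0.71) and called Tyms (1.57), and the authors' values put the second Mcm5 probe at 0.01.

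For wt exosomes against untreated cells, 1 gene was called higher without background correction, with offset 50 and with the authors' values, and 0 under median scaling and with no filter. Median scaling called 4 lower, with a median of −1.39, and turned Mcm3 (−1.24), Mcm5 (−0.98 and −0.87), Mcm6 (−1.39), Mcm7 (−1.35) and Pcna (−1.30). Of its 6292 calls 12% were higher, against 51.5% of 4303 with quantile normalization. The median was 0.291 with the authors' values and 0.459 with the replicate block, and 2538 probes were called among those detected on all arrays, of which 70.8% were higher and fewer were tested. Leaving out 1 array gave 0 to 4 genes higher, 0 to 1 lower, a median of 0.198 to 0.525 and 2354 to 5923 probes called. Between numbers, Mcm2 turned to 0.03 under median scaling, the second Mcm5 probe was not called with no filter (adjusted p = 0.0902), and leaving out 1 array gave 0 to 1 genes called higher, a median of −0.368 to 0.0827 and 1293 to 2286 probes called; Pcna (−0.13 to 0.13), Mcm2 (−0.22 to 0.25), Mcm4 (−0.24 to 0.08), Mcm6 (−0.37 to 0.23) and Mcm7 (−0.53 to 0.02) changed sign.

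The replicate block changed no call of the 9 genes: Rrm2 in B12 cells with wt exosomes stayed at −1.42 (adjusted p = 0.724), and limma called 0 probes in each B12 treatment comparison. The cause of the values that moved was not tested. With 2 arrays a group, these comparisons had few degrees of freedom. Probes dim in exosomes, such as Tyms, Mcm4 and the second Mcm5 probe, lay near background there.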
